A study of Mus musculus with 6 samples.

Results

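Wnt proteins are secreted, lipid-modified signals that act over short distances between neighbouring cells. Binding of a Wnt to a Frizzled receptor and its Lrp co-receptor stabilises beta-catenin, which enters the nucleus and activates target genes together with Tcf and Lef factors, while other Wnt proteins signal without beta-catenin. R-spondins amplify the signal, secreted Dickkopf and Frizzled-related proteins limit it, and Axin2 is an intracellular inhibitor that beta-catenin itself induces. In the bladder, Wnt signals pass between the urothelium, the stratified epithelium that faces the urine, and the stroma below it.

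The genes described were 10 named Wnt pathway genes. They comprised the ligands Wnt2, Wnt4, Wnt5a, Wnt7b and Wnt10a, the R-spondin Rspo3, the secreted modulators Dkk2, Dkk3 and Sfrp1, and the feedback inhibitor Axin2. Each was matched by its Ensembl identifier. Of the 10 genes, 9 were listed in all 6 tables, among 14338 genes that every table listed and that remained once mitochondrial and ribosomal protein genes were set aside, and Rspo3 was listed in 2 tables. The mice were wild-type C57BL/6 animals 8 weeks old, and both sexes were used. The study reports more mice than libraries per condition, so a library is taken to be a pool of mice and not an animal. Cells of the bladder mucosal layer were profiled by droplet single-cell RNA sequencing of transcript 3′ ends in healthy mice, in mice taken 48 h after a single injection of the urotoxic drug cyclophosphamide (acute injury), and in mice given 4 rounds of the drug over 11 days (chronic injury), with 2 libraries in each group. By the methods of the study, chronic mice were also taken 48 h after their last injection. Each chronic dose was lower than the acute dose. All cells of all groups carried the same genotype.

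The tables held 5348 to 15062 cells and 54604109 to 111985678 UMIs (unique molecular identifiers, each marking one captured transcript) per library, with a median of 5530 to 9138 UMIs per cell. Pairs of libraries shared 36 to 229 cell barcodes, from 0.67% to 2.28% of the smaller library. Cells were grouped into Cd34+ fibroblasts, Acta2+ myofibroblasts and basal, intermediate and superficial urothelial cells by clustering on other genes, with the 10 genes and a wider Wnt list kept out. Levels are UMIs of a gene per 1000000 UMIs of the 14338 genes kept, in the cells of a class in a library (CPM). The totals and medians above count all listed genes, whereas cell depths given with thinned shares count the kept genes alone. Library values are always given in the order replicate 1, replicate 2. The fibroblast class of chronic replicate 2 stood apart. It held 71 cells, its 5 fibroblast markers summed to 1381 CPM against 4903 to 9788 CPM in the other libraries, and its 10 urothelial markers summed to 7253 CPM against 1039 to 4395 CPM. Calls between stromal classes among the 10 genes, and the chronic stromal estimates named below, are therefore also given without it. Stromal values of the wider list and of sub-clusters are given with it only.

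For 4 of the 10 genes, a promoter sequence was at hand from RefSeq (GRCm38.p6), running from 250 bases before to 50 bases after the start of transcription. The promoters of Dkk2, Wnt2 and Wnt4 are shown because Dkk2 was higher in myofibroblasts than in fibroblasts, Wnt2 was high in both stromal classes and Wnt4 was found in stroma and urothelium. Capitals mark CTTTG, the core letters of the Tcf and Lef binding motif, searched on both strands.
Dkk2, chr3:132085042-132085341, plus strand: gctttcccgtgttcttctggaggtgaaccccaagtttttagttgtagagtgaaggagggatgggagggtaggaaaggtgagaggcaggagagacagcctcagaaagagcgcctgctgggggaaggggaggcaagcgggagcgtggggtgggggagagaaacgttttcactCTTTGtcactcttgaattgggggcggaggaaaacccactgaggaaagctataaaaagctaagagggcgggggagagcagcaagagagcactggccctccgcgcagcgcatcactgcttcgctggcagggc
Wnt2, chr6:18030396-18030695, minus strand: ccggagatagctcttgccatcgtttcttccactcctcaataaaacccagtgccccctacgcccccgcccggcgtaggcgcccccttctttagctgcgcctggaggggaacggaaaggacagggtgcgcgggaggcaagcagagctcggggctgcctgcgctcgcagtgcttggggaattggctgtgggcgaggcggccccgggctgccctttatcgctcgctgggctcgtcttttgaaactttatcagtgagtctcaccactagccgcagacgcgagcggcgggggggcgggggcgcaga
Wnt4, chr4:137277385-137277684, plus strand: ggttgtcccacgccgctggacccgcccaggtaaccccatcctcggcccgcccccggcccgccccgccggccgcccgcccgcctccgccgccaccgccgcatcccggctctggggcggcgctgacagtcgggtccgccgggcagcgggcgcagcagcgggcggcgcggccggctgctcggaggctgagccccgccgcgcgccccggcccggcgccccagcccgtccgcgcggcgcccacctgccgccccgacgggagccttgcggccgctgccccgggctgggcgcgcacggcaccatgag
CTTTG occurred once in the Dkk2 window, with its first base 80 bases before the start, and in neither of the other windows, nor in that of Axin2. It was found in 53.9% of 32851 promoter windows of this length, so its presence does not set Dkk2 apart. The longer form CTTTGAT, held by 3.73% of windows and overlapping the core, was in none of the 4. The count of CG pairs was 11 for Dkk2, 27 for Wnt2, 31 for Axin2 and 51 for Wnt4, against a median of 7 over all windows.

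The first question was which compartment carried each gene. Stromal (mesenchymal) and urothelial cells of the same library were compared, with library as a block. Of the 9 genes tested, 8 differed, 5 higher and 3 lower in stroma. Among all 14081 genes tested 68.9% differed, 31.6% higher and 37.3% lower, so most genes of any kind separated the compartments. The 5 genes higher in stroma were Wnt2, Dkk2, Dkk3, Sfrp1 and Axin2, and the 3 higher in urothelium were the ligands Wnt5a, Wnt7b and Wnt10a. Wnt4 was found in both compartments and did not pass the test (log2 0.26 ± 0.19 SE, adjusted p = 0.235). Each library value is shown in the plot of levels by class.

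**Figure D1:**
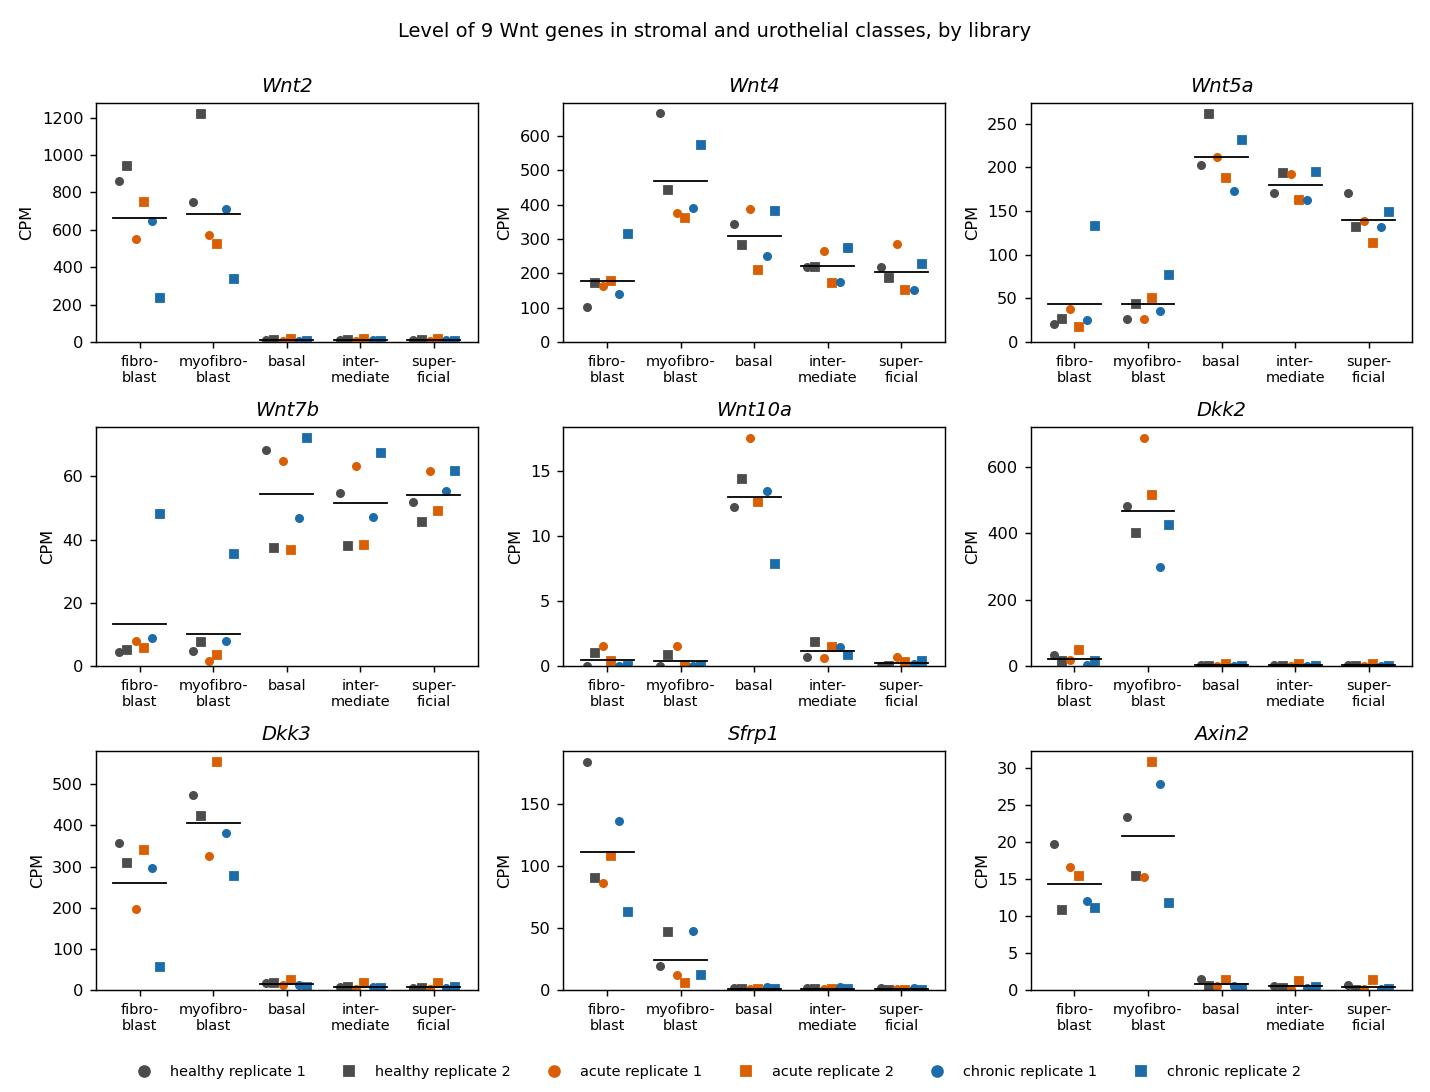
Levels of 9 Wnt pathway genes in 5 cell classes. The vertical axis is CPM, each point is 1 of 6 libraries, colour gives the group, shape the replicate and the bar the mean over libraries. Wnt2, Dkk2, Dkk3, Sfrp1 and Axin2 sit high in stromal classes, Wnt5a, Wnt7b and Wnt10a in urothelial classes and Wnt4 in both, with Dkk2 between 298 and 686 CPM in myofibroblasts and at most 48.2 CPM in fibroblasts.

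Wnt2, a ligand of the beta-catenin branch best known for its part in lung development, lies at chromosome 6, 17988940 to 18030585, minus strand (mm10). In fibroblasts it stood at 860.0 and 941 CPM in healthy, 551 and 749.8 CPM in acute and 648 and 237 CPM in chronic libraries. In myofibroblasts it stood at 750.1 and 1218 CPM in healthy, 575 and 523 CPM in acute and 712 and 336 CPM in chronic libraries. Every stromal value lay above that of all urothelial cells together, which ranged from 4.8 to 15.2 CPM. The compartments differed by log2 5.96 ± 0.26 SE, adjusted p = 2.35e-08. Myofibroblasts and fibroblasts did not pass the test against each other for Wnt2 (log2 0.07 ± 0.13 SE, adjusted p = 0.770), with a higher value in myofibroblasts in 4 of 6 libraries and a sign that turned when libraries were clustered without integration (-0.087).

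Among the stromal sub-clusters, Wnt2 was detected throughout. Over the 8 fibroblast and myofibroblast sub-clusters its mean ran from 627 ± 283 CPM (SD, n = 4 libraries) in a Car3 and Gatm sub-cluster of myofibroblasts to 1000.1 ± 209 CPM (SD, n = 4 libraries) in an Lrat and Inmt sub-cluster of the same class. The 4 fibroblast sub-clusters had means of 667, 737, 755 and 741 CPM, which differed by less than their spread over libraries.

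Wnt4, a ligand with roles in epithelial differentiation of the kidney and in the reproductive tract, lies at chromosome 4, 137277489 to 137299726, plus strand. Myofibroblasts carried 667 and 443 CPM in healthy, 376 and 362 CPM in acute and 389.8 and 572 CPM in chronic libraries. Fibroblasts carried 102 and 172 CPM in healthy, 164 and 177 CPM in acute and 139 and 315 CPM in chronic libraries. Myofibroblasts were higher in 6 of 6 libraries (log2 1.50 ± 0.19 SE, adjusted p = 2.03e-05).

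The fibroblasts were not uniform for Wnt4. A sub-cluster led by Pcolce2, Tppp3 and Mfap5 was lowest, at 70.1 ± 14.7 CPM (SD, n = 5 libraries), and a sub-cluster led by Stmn2, Has1 and Bglap2 was highest, at 284 ± 78.3 CPM (SD, n = 6 libraries). The ranges of these 2 sub-clusters did not overlap. Stmn2 was a leading gene of every fibroblast sub-cluster, whereas Has1 led the highest one alone. Urothelial signal was also higher in the Has1 sub-cluster than in the Pcolce2 one, the only 2 compared here. The urothelial marker score (the mean over the marker list of the level standardised across sub-clusters) was 0.50 in the highest and -0.65 in the lowest, and the share of cells called doublets before removal was 8.07% against 1.82%. Wnt5a, which was higher in urothelium than in stroma, stood at 18.6 to 119 CPM over 6 libraries in the former and 8.0 to 19.7 CPM over 5 libraries in the latter, ranges that overlapped, and the means of Wnt7b were 14.4 and 5.9 CPM. The part of urothelial RNA in the Wnt4 contrast was not tested. The 4 myofibroblast sub-clusters had means of 509, 442, 422 and 465 CPM, within each other's spread.

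Among the urothelial layers, Wnt4 was highest in basal cells by mean. Basal cells carried 343 and 283 CPM in healthy, 387 and 209.9 CPM in acute and 251 and 381 CPM in chronic libraries. Intermediate cells had a mean of 221 ± 43.7 CPM (SD, n = 6) and were lower than basal cells in 6 of 6 libraries (log2 -0.41 ± 0.04 SE, adjusted p = 1.80e-07). Superficial cells, at 203 ± 51.1 CPM (SD, n = 6), did not pass the test against intermediate cells (log2 -0.06 ± 0.06 SE, adjusted p = 0.480). In the order myofibroblasts, basal, intermediate, superficial and fibroblasts by mean, the last 3 lay within each other's spread.

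Because free RNA from one cell type can be captured with another, the level of each gene outside its compartment was set beside that of marker genes. The 10 urothelial markers reached a median of 7.07% to 53.1% of their urothelial level in fibroblasts, with the top value in chronic replicate 2, and 5.81% to 24.4% in myofibroblasts. Relative to its urothelial level, Wnt4 was above all 10 markers in both stromal classes in 6 of 6 libraries. Wnt5a was above all 10 in fibroblasts in 2 libraries and in myofibroblasts in 4, and Wnt7b in 0 and 2. The stromal Wnt7b values thus lay within the range of urothelial markers in all fibroblast libraries.

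Wnt5a, the main ligand of beta-catenin-independent signalling and a regulator of cell polarity and tissue outgrowth, lies at chromosome 14, 28504750 to 28527448, plus strand. Basal cells carried 203 and 262 CPM in healthy, 212 and 188 CPM in acute and 173 and 232 CPM in chronic libraries. The level stepped down towards the lumen, to a mean of 179 ± 15.8 CPM (SD, n = 6) in intermediate cells and of 139 ± 19.4 CPM (SD, n = 6) in superficial cells. Both steps passed the test, with log2 -0.17 ± 0.04 SE, adjusted p = 0.00290 for intermediate against basal cells and log2 -0.30 ± 0.07 SE, adjusted p = 0.00180 for superficial against intermediate cells. The first was seen in 6 and the second in 5 of 6 libraries.

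The stromal level of Wnt5a was lower than the urothelial level (log2 -2.28 ± 0.23 SE, adjusted p = 8.79e-06). It lay at 26.4 and 43.8 CPM in healthy, 25.9 and 50.1 CPM in acute and 35.8 and 76.7 CPM in chronic libraries in myofibroblasts. In fibroblasts it lay between 16.9 and 37.8 CPM in 5 libraries and at 133 CPM in chronic replicate 2. The difference between the stromal classes did not pass the test with all libraries (log2 0.52 ± 0.23 SE, adjusted p = 0.140) and did so without chronic replicate 2 (log2 0.71, adjusted p = 0.0323). It also passed when libraries were clustered without integration (log2 1.02, adjusted p = 3.00e-04).

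Wnt7b, a ligand of epithelia that signals to the mesenchyme in the developing lung and kidney, lies at chromosome 15, 85535437 to 85582473, minus strand. Its means in the 3 layers lay within each other's spread. The mean was 54.4 ± 16.0 CPM (SD, n = 6) in basal cells. It was 51.5 ± 12.5 CPM (SD, n = 6) in the intermediate layer, with 54.2 ± 6.6 CPM (SD, n = 6) for superficial cells, and neither step between neighbouring layers passed the test (log2 -0.003 ± 0.055, adjusted p = 0.978, and log2 0.16 ± 0.07 SE, adjusted p = 0.0742). In every layer, replicate 2 was the lower of the healthy and of the acute libraries and the higher of the chronic ones. Stroma was lower (log2 -2.83 ± 0.31 SE, adjusted p = 1.64e-05), at 1.5 to 8.9 CPM in both stromal classes in 5 libraries and at 48.1 CPM in fibroblasts and 35.4 CPM in myofibroblasts of chronic replicate 2.

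Wnt10a, a ligand required for skin appendages, teeth and the renewal of stratified epithelia, lies at chromosome 1, 74791516 to 74804179, plus strand. It was the most layer-restricted of the 9 genes by size of change between layers. Basal cells carried 12.2 and 14.4 CPM in healthy, 17.5 and 12.6 CPM in acute and 13.5 and 7.8 CPM in chronic libraries. Intermediate cells carried 0.65 to 1.86 CPM and superficial cells 0.00 to 0.67 CPM, so that no library of another layer reached the lowest basal value. The drop from basal to intermediate cells was log2 -3.38 ± 0.18 SE, adjusted p = 1.36e-11, and from intermediate to superficial cells log2 -1.83 ± 0.49 SE, adjusted p = 0.00491. Both stromal classes together held 9 UMIs over all libraries.

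Among the 15 urothelial sub-clusters, Wnt10a was highest in 2. The sub-cluster led by Krt14, Dlk2 and Col17a1 carried 17.2 and 20.4 CPM in healthy, 32.5 and 25.9 CPM in acute and 19.7 and 15.3 CPM in chronic libraries. In a cycling sub-cluster, 74.8% of cells scored as basal. It carried 19.3 and 27.0 CPM in healthy, 48.6 and 45.8 CPM in acute and 59.0 and 30.3 CPM in chronic libraries. The other cycling sub-cluster, in which no cell scored as basal, had 0.38 to 1.8 CPM in the 4 libraries with enough cells. In single cells the gene was seen rarely. Of 7698 basal and 22358 intermediate cells, 7557 and 21902 held at least 2000 UMIs and were thinned to that number, and shallower cells were left out. Among them, 1.76% to 3.61% of basal cells had a Wnt10a UMI (3.12% to 6.61% unthinned, median depth 2808 to 4710 UMIs), against 0.16% to 0.41% of intermediate cells (0.34% to 0.97% unthinned, median depth 3788 to 5788 UMIs).

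Rspo3, an R-spondin that is made by endothelial and stromal cells of several organs, lies at chromosome 10, 29452416 to 29535867, minus strand. It was seen in 9 cells. Healthy replicate 2 held 2 UMIs, both in intermediate cells, and acute replicate 2 held 8 UMIs in 7 cells. Of those 8 UMIs, 5 were in the 321 endothelial cells and 1 each in fibroblasts, myofibroblasts and intermediate cells. The gene was not tested, because the other 4 tables did not list it and 2 of those (healthy replicate 1 and acute replicate 1) list no gene seen in fewer than 8 and 6 cells.

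Dkk2, a secreted Dickkopf protein that binds the Lrp co-receptors, lies at chromosome 3, 132085292 to 132180304, plus strand. It separated the stromal classes more than any other of the 8 genes tested between them. Myofibroblasts carried 481 and 401 CPM in healthy, 686 and 515 CPM in acute and 298 and 425 CPM in chronic libraries. Fibroblasts carried 32.5 and 14.6 CPM in healthy, 19.7 and 48.2 CPM in acute and 3.9 and 14.8 CPM in chronic libraries. No library value of the 2 classes overlapped, and the difference was log2 4.48 ± 0.25 SE, adjusted p = 1.61e-09. In the comparison of myofibroblasts with fibroblasts, 5 of the 8 genes differed, 4 higher and 1 lower, against 18.8% of 11290 genes (10.8% higher and 7.98% lower).

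Single cells showed the same separation for Dkk2. At least 2000 UMIs were held by 4486 of 4986 myofibroblasts and 3126 of 5025 fibroblasts, and the thinned shares rest on these deeper cells. After thinning, 44.5% to 66.2% of myofibroblasts had a Dkk2 UMI (39.8% to 82.2% unthinned, median depth 2028 to 3820 UMIs) against 0.29% to 6.8% of fibroblasts (0.58% to 8.75% unthinned, median depth 1905 to 3380 UMIs). Intermediate cells, which lay outside the stroma, gave 0.086% to 1.53%. The lowest fibroblast shares were within the range of the intermediate cells.

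Dkk2 also ordered the sub-clusters within the myofibroblasts. The Car3 and Gatm sub-cluster was highest, at 670.5 ± 87.4 CPM (SD, n = 4 libraries), followed by the Gatm, Cnn1 and Actg2 sub-cluster at 533 ± 79.3 CPM (SD, n = 6 libraries) and the Wisp2 and Bdnf sub-cluster at 441 ± 142 CPM (SD, n = 6 libraries). These 3 overlapped over libraries. The Lrat and Inmt sub-cluster was lower and more variable, at 391 and 172 CPM in the healthy libraries, 375 CPM in acute replicate 2 and 69.3 CPM in chronic replicate 1, and it was also the sub-cluster with the most even mix of fibroblast and myofibroblast markers. Among fibroblasts the Pcolce2 sub-cluster was lowest, at 4.1 ± 4.7 CPM (SD, n = 5 libraries), and the Has1 sub-cluster highest, at 45.4 ± 34.3 CPM (SD, n = 6 libraries).

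**Figure D2:**
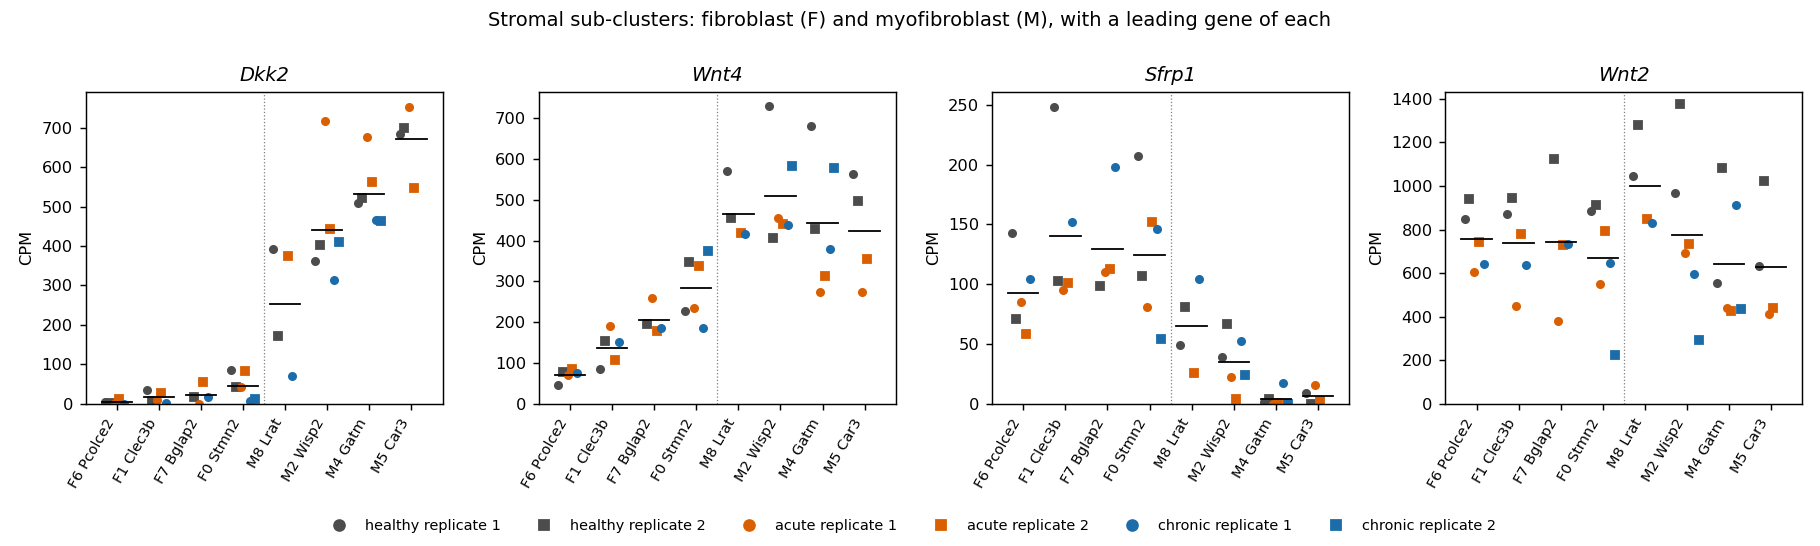
Levels of Dkk2, Wnt4, Sfrp1 and Wnt2 in 4 fibroblast (F) and 4 myofibroblast (M) sub-clusters, each labelled with its number and one of its leading genes. Some labels are leading genes of other sub-clusters too, as Stmn2 (F0) is of every F sub-cluster. The vertical axis is CPM, points are libraries with at least 20 cells of the sub-cluster and bars are means over them. Dkk2 is lowest in F6 and highest in M5, Sfrp1 has a higher mean in each F than in each M sub-cluster, with up to 248 CPM in F1 and at most 17.2 CPM in M4, and Wnt2 is present in all 8.

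Sfrp1, a secreted Frizzled-related protein that binds Wnt ligands outside the cell, lies at chromosome 8, 23411502 to 23449632, plus strand. Its difference between the stromal classes had the opposite sign to that of Dkk2. Fibroblasts carried 183 and 90.2 CPM in healthy, 85.9 and 108 CPM in acute and 136 and 62.9 CPM in chronic libraries. Myofibroblasts carried 19.5 and 46.4 CPM in healthy, 12.2 and 5.9 CPM in acute and 47.7 and 11.8 CPM in chronic libraries. Fibroblasts were higher in 6 of 6 libraries (log2 -2.70 ± 0.33 SE, adjusted p = 1.52e-05).

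Within the myofibroblasts, Sfrp1 was lowest in the sub-clusters led by contractile genes. The 2 Gatm sub-clusters, whose leading genes include Myh11 and Cnn1, had means of 3.8 and 6.6 CPM, with at most 17.2 CPM in any library. The Wisp2 sub-cluster had 34.7 ± 22.5 CPM (SD, n = 6 libraries) and the Lrat sub-cluster 64.9 ± 34.4 CPM (SD, n = 4 libraries). In fibroblast sub-clusters the values ran from 54.3 to 248 CPM.

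Dkk3, a divergent Dickkopf protein whose effect on Wnt signalling depends on the setting, lies at chromosome 7, 112116017 to 112159057, minus strand. Myofibroblasts carried 473 and 422 CPM in healthy, 325 and 554 CPM in acute and 382 and 277 CPM in chronic libraries. Fibroblasts carried 357 and 308 CPM in healthy, 198 and 339 CPM in acute and 296 and 55.5 CPM in chronic libraries. Myofibroblasts were higher in 6 of 6 libraries, by less than for Dkk2 (log2 0.73 ± 0.16 SE, adjusted p = 0.00435).

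Within the urothelium, Dkk3 was at a low level and highest in basal cells by mean. Basal cells carried 16.7 and 15.9 CPM in healthy, 12.9 and 24.3 CPM in acute and 11.9 and 6.5 CPM in chronic libraries. Intermediate cells were lower in 6 of 6 libraries (log2 -0.95 ± 0.13 SE, adjusted p = 3.35e-06). Superficial cells did not pass the test against intermediate cells (log2 0.04 ± 0.15 SE, adjusted p = 0.854). In the Krt14 sub-cluster of basal cells it stood at 27.4 and 20.6 CPM in healthy, 15.8 and 26.9 CPM in acute and 11.5 and 8.9 CPM in chronic libraries. Stromal RNA in basal cells was measured by 6 stromal markers (Dcn, Col1a1, Col1a2, Col3a1, Lum and Sparc). Vim, which is also on the stromal marker list, was left out of this set. The markers reached a median of 0.677% to 2.35% of their stromal level per library, highest in acute replicate 2. Dkk3 reached 3.65% to 5.41% and was above all 6 markers in 6 of 6 libraries, on 516 UMIs in basal cells.

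**Figure D3:**
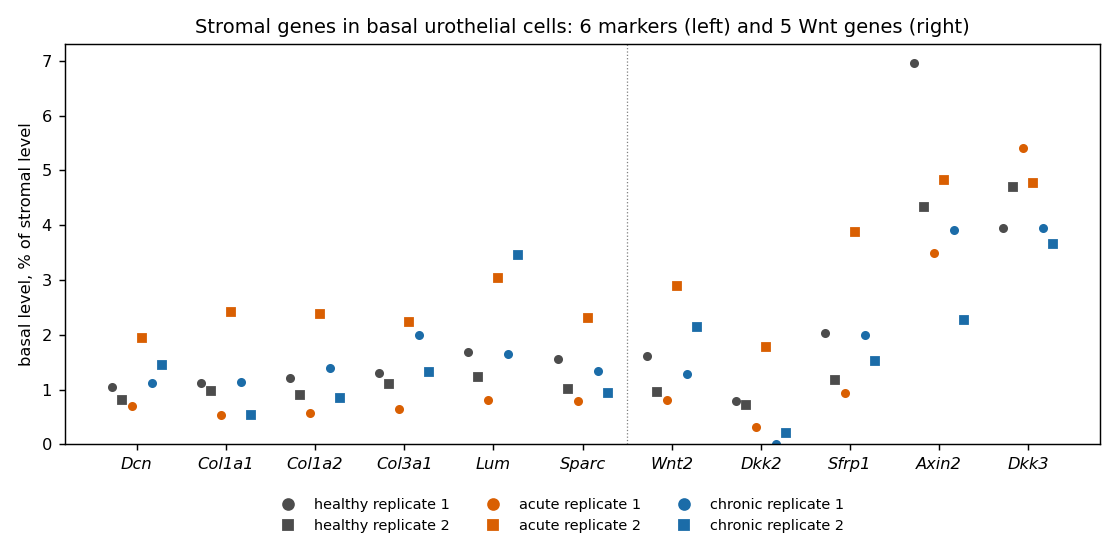
Level in basal urothelial cells as a percentage of the level in stromal cells of the same library, for 6 stromal markers on the left and 5 stromal Wnt genes on the right. Each point is a library. Dkk3 lies between 3.65% and 5.41%, above the 6 markers in each library, whereas Dkk2 lies below them.

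The other stromal genes did not all behave in this way. Wnt2 was within the marker range in basal cells in 5 of 6 libraries, and Dkk2 was below all 6 markers in 6 of 6 libraries. Sfrp1 was above all 6 in 4 libraries and Axin2 in 5, but on 33 and 27 UMIs in total. How far free stromal RNA contributes to these low urothelial values was not tested.

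Axin2, the feedback inhibitor and a standard readout of beta-catenin signalling, lies at chromosome 11, 108920349 to 108950783, plus strand. It was found in stroma, at 23.4 and 15.5 CPM in healthy, 15.2 and 30.8 CPM in acute and 27.8 and 11.8 CPM in chronic libraries in myofibroblasts. In fibroblasts it stood at 19.7 and 10.7 CPM in healthy, 16.6 and 15.4 CPM in acute and 12.0 and 11.1 CPM in chronic libraries. Stroma was higher than urothelium (log2 5.07 ± 0.24 SE, adjusted p = 3.17e-08), where the highest library value in basal, intermediate or superficial cells was 1.50 CPM.

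Axin2 was higher in myofibroblasts than in fibroblasts in 5 of 6 libraries (log2 0.61 ± 0.18 SE, adjusted p = 0.0267). This call was weak. It was lost without acute replicate 2 (log2 0.40, adjusted p = 0.307), without chronic replicate 1 (log2 0.55, adjusted p = 0.0560) and with DESeq2 (adjusted p = 0.117).

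The calls between the stromal classes were also made without chronic replicate 2. Its absence left log2 4.44 for Dkk2, 1.59 for Wnt4, -2.74 for Sfrp1, 0.57 for Dkk3 and 0.61 for Axin2, each past the threshold of edgeR's test. Wnt2, at 0.00, again did not pass it. The 8 calls between stroma and urothelium were likewise made without that library.

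Between the urothelial layers, 4 of the 9 genes were lower in intermediate than in basal cells and none was higher, against 45.2% of 12820 genes called (21.8% higher and 23.4% lower). The 4 genes were Wnt10a, Dkk3, Wnt4 and Wnt5a. From intermediate to superficial cells 3 of 9 differed, Wnt10a and Wnt5a lower and Wnt2 higher, against 50.2% of 12753 genes called (24.7% higher and 25.5% lower). The Wnt2 difference was small (log2 0.31 ± 0.11 SE, adjusted p = 0.0223) on levels of 4.3 to 16.6 CPM, and the call was lost without healthy replicate 2 (adjusted p = 0.0642), without chronic replicate 1 (adjusted p = 0.0965), with DESeq2 (adjusted p = 0.0679), with a stricter cell filter (adjusted p = 0.0993) and when libraries were clustered without integration (adjusted p = 0.105). Relative to its stromal level, Wnt2 in superficial cells was above all 6 stromal markers in 4 libraries and within their range in 2.

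A wider list of 73 Wnt pathway genes, of which 50 were listed in every table, placed the 10 genes among their partners. In stroma against urothelium, 23 of 50 were higher and 13 lower, against 31.6% higher and 37.3% lower over all genes, with a median log2 difference of 0.09 against -0.11. Of 6 listed genes for secreted antagonists and their receptors, 4 were higher and 2 lower, the latter being Dkkl1 (log2 -1.98) and the Dickkopf receptor gene Kremen1 (-1.16). The 6 largest differences by size were all higher in stroma. Sostdc1, Frzb and Sfrp2, which bind Wnt proteins or their co-receptors, were higher in stroma by log2 6.51, 6.05 and 5.94. Notum, an enzyme that strips the lipid from Wnt proteins, was higher by 5.81, and the Dishevelled-binding inhibitors Nkd1 and Nkd2 by 5.99 and 5.81.

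Myofibroblasts differed from fibroblasts in 18 of 47 listed genes, 13 higher and 5 lower, against 10.8% of all genes higher and 7.98% lower. Of 10 genes listed as beta-catenin targets, 6 were higher and none lower, with a median log2 difference of 1.45 against -0.01 over all genes. Some of these genes are also receptors or inhibitors and stand in more than one list. Notum was at 177 and 153 CPM in healthy, 119 and 173 CPM in acute and 127 and 70.8 CPM in chronic libraries in myofibroblasts and between 9.0 and 34.6 CPM in fibroblasts (log2 3.12). The transcription factor gene Lef1 was higher by log2 2.54 and the R-spondin receptor gene Lgr5 by 2.18, the latter at 11.9 to 17.7 CPM in myofibroblasts. Frzb was higher by 3.34.

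Lower in myofibroblasts were Wnt2b, a close relative of Wnt2, by log2 -4.00, and the receptor gene Fzd4 by -2.09. Wnt2b stood at 7.3 to 10.7 CPM in fibroblasts of 5 libraries and had no UMI in the 71 cells of chronic replicate 2, where a count of 0 allows up to 11.1 CPM (3 UMIs, counting error only). Wnt2 itself did not separate the 2 classes.

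Across urothelial layers the wider list fell from basal to intermediate cells in 17 of 44 genes and rose in 7, against 23.4% of all genes lower and 21.8% higher. The ligand Wnt6 (log2 -2.09), the Wnt5a receptor gene Ror2 (-2.03) and the transcription factor gene Tcf7 (-1.84) had the largest falls, and 6 of 9 listed target genes were lower, among them Ccnd1 (-0.75), with none higher. From intermediate to superficial cells 21 of 43 fell and 5 rose, against 25.5% of all genes lower and 24.7% higher. Of 13 receptor genes, 8 fell, including Ror2 (-1.76) and Fzd5 (-1.17), and 1 rose, the Wnt receptor gene Fzd7 (0.50). Porcn, which acylates Wnt proteins before secretion, also fell (-1.04). Dkkl1, a Dickkopf-like gene, rose at both steps (1.60 and 2.33).

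The second question was whether injury altered these levels. Acute and chronic libraries were each compared with the healthy ones in the 5 classes, giving 10 comparisons and 72 pairs of gene and comparison. None of the 72 pairs passed edgeR's quasi-likelihood test, and the lowest adjusted p was 0.610. At an unadjusted p below 0.05 there were 4 pairs (5.56%, against 4.63% over all genes and comparisons), and DESeq2 also called none. The test called few genes of any kind, since percent called was 0 in 7 comparisons, 0.00906 in acute and in chronic fibroblasts and 0.00883 in acute superficial cells. DESeq2 called 8 to 55 genes per comparison. Differences below are values, and none is called a change. The table of acute replicate 2 gave 304 of 14338 shared gene identifiers another symbol than the other 5 tables did. The annotation release behind each table is not given in the sources used here, and its part in the acute estimates was not tested. Of 936 estimates recomputed for the 72 pairs with other settings or with a library left out, 74 changed sign and none passed the test.

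**Figure D4:**
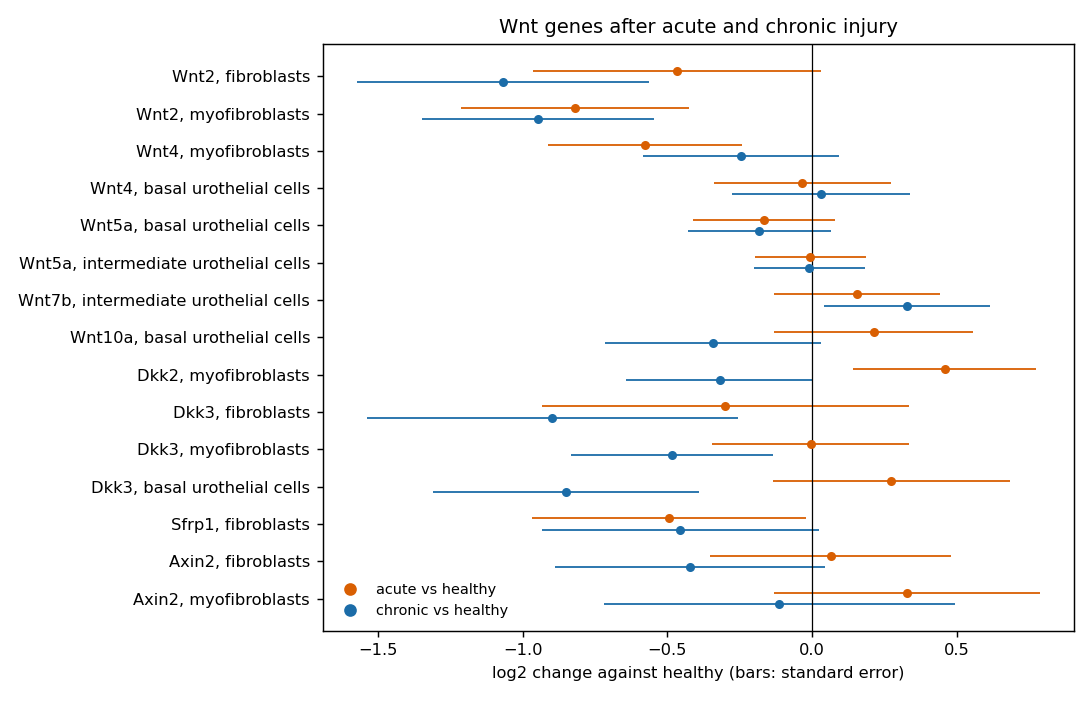
Estimated log2 change of Wnt pathway genes in acute and chronic libraries against healthy libraries, for chosen pairs of gene and class and not all pairs tested. Points are edgeR estimates and bars are standard errors. None passed the test after adjustment, and Wnt2 lies below 0 in both stromal classes after both injuries, between -0.47 and -1.07.

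Wnt2 had a negative estimate in both stromal classes after both injuries, as did Sfrp1 and Dkk3 with all libraries. The Dkk3 estimate in acute myofibroblasts was only -0.005 ± 0.34. Without chronic replicate 2, chronic Sfrp1 went from -0.45 to -0.04 in fibroblasts and turned from -0.20 to 0.53 in myofibroblasts. For Wnt2 in fibroblasts the estimate was -0.47 ± 0.50 (SE) after acute and -1.07 ± 0.50 after chronic injury. In myofibroblasts it was -0.82 ± 0.39 and -0.95 ± 0.40 (unadjusted p = 0.0691 and 0.0432 by edgeR's test). In all 4 comparisons both injured libraries lay below both healthy ones for Wnt2. The share of all genes that lay lower without overlap was 16.2% in acute fibroblasts, 18.7% in chronic fibroblasts, 15.1% in acute myofibroblasts and 15.5% in chronic myofibroblasts. The acute and chronic comparisons share their healthy libraries, and both classes come from the same libraries, so the 4 comparisons are not independent. The share of all genes that lay lower in all 4 was not computed.

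Single libraries carried much of the Wnt2 estimates. Without chronic replicate 2 the chronic estimates were -0.50 in fibroblasts and -0.53 in myofibroblasts, and without chronic replicate 1 they were -2.06 and -1.61. Without healthy replicate 2, whose myofibroblasts held 1218 CPM, the myofibroblast estimates were -0.46 after acute and -0.61 after chronic injury. Sub-cluster makeup differed as well. In acute replicate 2 the Car3 and Gatm sub-cluster held 1513 cells before doublets were removed, against 9 to 179 in the other libraries. Within the Wisp2 sub-cluster alone Wnt2 stood at 966 and 1375 CPM in healthy, 694 and 735 CPM in acute and 596 and 291 CPM in chronic libraries. Within the Gatm and Actg2 sub-cluster it stood at 553 and 1082 CPM in healthy, 441 and 424 CPM in acute and 913 and 435 CPM in chronic libraries. In the Car3 sub-cluster, with too few chronic cells, the healthy libraries held 634 and 1025 CPM and the acute ones 411 and 438 CPM. In the Lrat sub-cluster the healthy libraries held 1044 and 1278 CPM, acute replicate 2 held 846 CPM and chronic replicate 1 held 831 CPM. The share of all genes ordered in these ways was not computed within sub-clusters, so no difference between groups is read from them.

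Among the modulators, Sfrp1 in acute myofibroblasts had an estimate of -2.04 ± 0.66 (unadjusted p = 0.0139, adjusted p = 1.00). Its values there were 12.2 and 5.9 CPM against 19.5 and 46.4 CPM in healthy libraries. The estimate was -1.37 without healthy replicate 2 and -1.35 without acute replicate 2, the library that held most cells of the Car3 and Gatm sub-cluster, where the mean of Sfrp1 was 6.6 CPM. Within the Wisp2 sub-cluster the values were 38.9 and 66.5 CPM in healthy, 22.4 and 4.3 CPM in acute and 52.3 and 23.8 CPM in chronic libraries. The part of sub-cluster makeup in the difference was not tested.

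In acute myofibroblasts Dkk2 lay higher in both libraries than in both healthy ones (686 and 515 against 481 and 401 CPM, estimate 0.46 ± 0.32), where 13.2% of genes lay higher without overlap. Wnt4 lay lower in the same cells in both libraries (estimate -0.58 ± 0.33), where 15.1% of genes lay lower without overlap. In chronic fibroblasts Dkk2 had an estimate of -2.08 ± 0.78 (unadjusted p = 0.0254), on 3.9 and 14.8 CPM against 32.5 and 14.6 CPM. It was -0.80 without chronic replicate 1, -1.33 without healthy replicate 1 and -2.61 without chronic replicate 2. Dkk3 in the same cells had an estimate of -0.90 ± 0.64, and -0.19 without chronic replicate 2.

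The positive estimates in chronic fibroblasts were smaller without chronic replicate 2. Wnt7b stood at 4.5 and 5.2 CPM in healthy, 7.9 and 5.6 CPM in acute and 8.9 and 48.1 CPM in chronic libraries. Both acute and both chronic libraries lay above both healthy ones, as they did for 15.8% of all genes in acute and 22.4% in chronic fibroblasts. These values rest on 89 Wnt7b UMIs in the fibroblasts of all libraries together. The counting error of a single library was not computed. Wnt7b had an estimate of 2.01 ± 0.76 (unadjusted p = 0.0262) with all libraries and 0.85 ± 0.55 without chronic replicate 2, and Wnt5a had 1.41 ± 0.69 and 0.06. Those were the cells in which urothelial markers stood at 53.1% of their urothelial level, against 7.07% to 22.7% in fibroblasts of the other libraries. The part of that RNA in the estimates was not tested.

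In the urothelial layers, which leave out cycling cells, no estimate passed the test either. In basal cells the Wnt4 estimates were -0.03 after acute and 0.03 after chronic injury, those of Wnt5a -0.17 and -0.18 and those of Wnt10a 0.21 and -0.34, with standard errors of 0.25 to 0.37. Without chronic replicate 2 the chronic estimates were -0.24 for Wnt4, -0.35 for Wnt5a and 0.09 for Wnt10a. Dkk3 in chronic basal cells stood at 11.9 and 6.5 CPM against 16.7 and 15.9 CPM in healthy ones (estimate -0.85 ± 0.46, and -0.37 without chronic replicate 2, -1.34 without chronic replicate 1), where 17.3% of genes lay lower without overlap. In chronic superficial cells Dkk3 lay higher in both libraries (estimate 0.13 ± 0.68), as did 19.1% of genes. In acute superficial cells its estimate was 0.95 ± 0.66, and -0.66 without acute replicate 2.

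The largest urothelial estimates by size were those of Dkk2, a gene with 86, 273 and 71 UMIs in all basal, intermediate and superficial cells. Acute replicate 2, the library with the highest level of stromal markers in basal cells, held 62, 138 and 49 of them. In acute libraries they were 1.57 ± 0.99 in basal, 1.02 ± 0.97 in intermediate and 1.20 ± 1.05 in superficial cells. Without acute replicate 2 they turned to -1.05, -1.29 and -1.83. In chronic libraries they were -1.83 ± 1.08 in intermediate and -1.38 ± 1.29 in superficial cells, and basal cells held 0 and 2 Dkk2 UMIs against 11 and 7 in healthy libraries. Relative to its stromal level, Dkk2 lay below all 6 stromal markers in these layers in 4 to 6 of 6 libraries, and the part of stromal RNA in the estimates was not tested. In intermediate cells Wnt7b had 0.16 ± 0.29 after acute and 0.33 ± 0.29 after chronic injury, the latter from 0.10 to 0.60 over 13 recomputed fits. With errors of this size, an estimate that did not pass the test does not show that a level was the same before and after injury.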

How the data were processed

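The deposited values were raw UMI counts per gene and cell, made by the authors with Cell Ranger from 10x Genomics 3′ v2 libraries aligned to mm10 (Cell Ranger version 2.1.1 per the methods of the study), with 1 table per library. Libraries are taken to be pools of several mice, although the methods of the study do not describe the pooling. The p-values measure the spread between libraries. No per-sample column was set aside. Which genes each table lists differs between libraries, and genes not listed in all 6 tables were left out of sums and tests. Tables list 15065 to 20180 genes, the most in acute replicate 2. Of 14338 gene identifiers compared, 304 carry another symbol there than in the other 5 tables, and 1881 identifiers appear there alone, against 1 to 312 in each other table. The annotation release is not given in the sources used here, and its part in the acute estimates was not tested. Cells with more than 500 genes and under 10% mitochondrial UMIs were kept. Doublets were scored with Scrublet in scanpy 1.11.5. Its automatic threshold marked 0 to 7 cells in 5 of the libraries, so the highest scores were removed at 0.8% per 1000 cells (4.28% to 11.1% of cells). Counts were normalised with sctransform 0.4.2, and integration across libraries used Seurat 5.3.0 under R 4.3.3 (3000 features). Cells were clustered by the Leiden method of scanpy 1.11.5 in its igraph form (30 principal components, 20 neighbours, resolution 0.8). Clusters were named from marker lists, and the thresholds for naming and for setting mixed clusters aside were settled after the clusters were seen. The members and gene lists were chosen with earlier results of these data known.

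UMIs were summed per library and class (at least 20 cells) and tested by the quasi-likelihood F test of edgeR 4.0.16 (filterByExpr, TMM scaling, Benjamini-Hochberg adjustment over all genes tested, threshold 0.05). Class comparisons had library as a block, and condition comparisons used all 6 libraries with group as the only term. DESeq2 1.42.0 was an alternative, as were other size factors, no filter on low counts, each library left out, doublets kept, a stricter cell filter (more than 1000 genes, under 5% mitochondrial UMIs), clustering without integration and the replicate number as a block. The scripts were tested on simulated data. All members are named with their values, and of the wider list at most 6 called genes per comparison, by size of change. Fzd7, Dkkl1 and Kremen1 were named outside that rule after their values were seen.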

Additional observations from a re-analysis of the deposited data

Results flagged for a closer look

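In chronic against healthy libraries, Dkk3 lay higher in both superficial libraries (estimate 0.13 on the log2 scale) while both libraries lay lower in fibroblasts (-0.90), myofibroblasts (-0.48) and basal cells (-0.85). The shares of all genes that did so were 19.1% higher in superficial cells and 18.7%, 15.5% and 17.3% lower in the other classes. Without chronic replicate 2, whose fibroblast class held 71 cells, the estimates were 0.04 in superficial cells, -0.19 in fibroblasts, -0.30 in myofibroblasts and -0.37 in basal cells. The superficial estimate turned to -0.37 when libraries were clustered without integration and to -0.029 with the stricter cell filter. None of the 4 estimates passed edgeR's test after adjustment, and the difference between the classes was not tested. Superficial Dkk3 was 5.6 and 5.4 CPM in healthy and 5.8 and 6.4 CPM in chronic libraries. Relative to its stromal level, superficial Dkk3 was above all 6 stromal markers in 3 libraries and within their range in 3. Rspo3, which was in no test because 2 tables list it, had 5 UMIs in the 321 endothelial cells of acute replicate 2.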

How the results depend on the processing

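The number of the 10 genes called stayed within 1.5 times its reported value under every alternative run (178 recomputed counts over 14 comparisons). In the 10 condition comparisons it was 0 in every run, where edgeR's test called few genes of any kind, so these counts say little about stability. It ran from 4 to 6 for myofibroblasts against fibroblasts and from 2 to 4 for superficial against intermediate cells. It stayed at 8 for stroma against urothelium and at 4 for intermediate against basal cells. For the log2 changes between classes and the condition estimates named in the text, 688 values were recomputed, of which 654 kept their direction and their side of the threshold, 8 lost and 4 gained a call and 22 changed sign. All 22 were in differences that did not pass the test. The estimates of Sfrp1 in the chronic stromal classes and of Dkk3 in acute myofibroblasts were outside this count. Over all 72 pairs of gene and condition comparison, 74 of 936 recomputed estimates changed sign, in 47 pairs. Wnt2 in myofibroblasts against fibroblasts became -0.087 and Wnt7b 0.0061 when libraries were clustered without integration. Wnt7b in intermediate against basal cells became 0.0077 without a filter on low counts, 0.0077 with doublets kept, 0.0082 with the stricter cell filter, 0.058 without healthy replicate 1 (the leave-one-out range was -0.032 to 0.058) and 0.0019 without chronic replicate 2. With 1 library left out, acute estimates in basal cells ran from -0.45 to 0.29 for Wnt4, -0.36 to 0.058 for Wnt5a and -1.05 to 2.41 for Dkk2, and chronic ones from -0.24 to 0.26 for Wnt4, -0.37 to 0.062 for Wnt5a and -0.79 to 0.093 for Wnt10a. Acute estimates ran from -0.16 to 0.42 for Wnt7b and -1.29 to 2.41 for Dkk2 in intermediate cells, and from -1.83 to 2.21 for Dkk2 and -0.66 to 1.69 for Dkk3 in superficial cells. Chronic superficial Dkk3 became -0.029 with the stricter cell filter and -0.37 without integration. Calls were lost for Axin2 between stromal classes and for Wnt2 between superficial and intermediate cells. They were gained for Wnt5a between stromal classes and for Wnt7b between superficial and intermediate cells, and the cause was not tested. The labels do not say that a replicate number marks a shared batch. Correlations of the deviations of same-numbered libraries over the 5 classes ran from 0.197 to 0.396 between healthy and acute, from -0.357 to 0.112 between healthy and chronic and from -0.271 to -0.192 between acute and chronic libraries. The methods of the study mention batches that the labels do not give, so how far batch coincides with group is unknown. The part of batch in the estimates was not tested. In the fits with the replicate block 0 members were called in all 10 condition comparisons, as without it, and 0 to 3 genes of any kind. The 135 recomputed mean levels moved by less than the spread over libraries. A count of 0 allowed up to 11.9 CPM in myofibroblasts of chronic replicate 1 and 11.1 CPM in fibroblasts of chronic replicate 2, against 0.264 CPM in myofibroblasts of acute replicate 2 (counting error only).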
